A study of Mus musculus with 6 samples.

Results

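The genes described here encode subunits and assembly factors of the respiratory chain complexes I, II and III and subunits of the mitochondrial ATP synthase. They were taken by name: each gene whose array symbol begins with Ndufa, Ndufb, Ndufc, Ndufs, Ndufv, Uqcr or Atp5, and Sdha, Sdhb, Sdhc and Sdhd. Cytochrome c oxidase was left out. These rules found 73 of the 18193 genes named on the array, with 144 of its 45037 probe sets. The rule reads names, and intensity only where a gene has several probe sets, when the one with the highest mean log2 value stands for it. Of the 73 genes, 34 encode complex I subunits, 8 complex I assembly factors, 4 complex II subunits, 8 complex III subunits and 17 ATP synthase subunits. The other 2, Ndufa4 and Ndufa4l2, carry complex I names, although Ndufa4 is now placed with cytochrome c oxidase.

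The cells were bone marrow erythroid progenitors, sorted for surface display of both CD71 (the transferrin receptor) and the erythroid antigen Ter119. They came from female mice at 6 weeks of age, with 1 Affymetrix array per mouse. The 3 control mice were Bcl11a +/+. The 3 knockout mice were Bcl11a fl/fl EpoR-Cre+, in which Cre recombinase, named after the erythropoietin receptor gene, deletes the floxed Bcl11a gene. Cre was present in the knockout mice and not in the controls, so effects of Cre, of the EpoR-Cre allele and of the loss of Bcl11a cannot be told apart. BCL11A is a transcriptional repressor best known for silencing embryonic and fetal globin genes in adult erythroid cells. The comparison answers whether genes of oxidative phosphorylation differed in RNA level between knockout and control cells.

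Complex I passes electrons from NADH, and complex II those from succinate, to ubiquinone. Complex III hands them on to cytochrome c, and the proton gradient built by complexes I, III and IV drives the ATP synthase, a rotary motor with a catalytic F1 head, a membrane ring of c subunits and a peripheral stalk that holds the head still. Maturing erythroid cells rely on mitochondria for heme synthesis and respiration until the organelles are removed before the red cell is mature.

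Values are intensities on a linear scale, which cannot be compared between probe sets as amounts of RNA. Changes are differences of log2(intensity + 16), knockout minus control, with standard errors from limma. Adjusted p-values are over all 45037 probe sets, with a threshold of 0.05. The array medians lay between 67.5 and 70.9. The 7 Bcl11a probe sets ranged from -0.40 to 0.32 in log2 change and 0 passed. The brightest had 1475, 1553 and 1450 in the controls and 1286, 1419 and 1190 in the knockouts, and the location of the probes relative to the deleted segment was not analysed here. Hbb-y, an embryonic globin gene, had 73.3 ± 6.91 (SD, n = 3) in the controls and 19621 ± 434 (SD, n = 3) in the knockouts.

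Markers of other cell types were detected beside those of erythroid cells and several of their sums did not overlap between the groups. The summed intensity of 8 measured erythroid markers of 10 listed was 67401 to 82854 in the controls and 86130 to 94252 in the knockouts. The 10 neutrophil markers summed to 209496 to 210603 and to 193209 to 201048, 7 of 8 B cell markers to 13466 to 15910 and to 9555 to 12900, and 4 of 5 basophil and mast cell markers to 5802 to 6174 and to 3727 to 5287. The neutrophil gene S100a8 gave the highest intensity on every array. The 7 macrophage markers summed to 8895 to 10107 in the controls and 10012 to 10670 in the knockouts, 5 of 6 megakaryocyte markers to 1633 to 2047 and 1455 to 2465, and the 4 T cell markers to 594 to 686 and 631 to 803. No measured marker was at 0, and Cd4 alone had a mean under 50. In bulk RNA, fewer cells of a type and less RNA per cell cannot be told apart. The part of these markers in the values of the respiratory genes was not tested.

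Across the family, RNA levels differed little between knockout and control mice. The brightest probe set of 0 of the 73 genes passed the test in either direction, where 0.14% of all probe sets were called higher and 0.00666% lower. The lowest adjusted p among them was 0.0812, for Ndufb9. At an unadjusted p under 0.05 there were 4 (5.48%), which were Ndufb9, Ndufb2, Atp5md and Ndufaf4. The share was 12.7% of all genes and 21.8% of genes with a mean log2 value over 10. With an intensity trend and robust moderation in limma, 1 gene was called, Ndufb9, which was higher in the knockouts. Under that setting 657 of all 18193 genes were called higher and 110 lower. Among the 3292 genes with a mean log2 value over 10, 431 were called higher and 55 lower.

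The bounds on these changes were narrow. The log2 change was smaller than 0.25 in size in 67 of the 73 genes (91.8%), compared with 70.8% of all genes and 74.2% of the 3292 genes with a mean log2 value over 10. The 95% interval of the change lay within 0.5 either way, a ratio of 1.41, in 61 genes (83.6%, against 42.4% of all genes and 70.0% of the bright ones), and within 1 in all 73. These genes are bright, with 61 of 73 above a mean log2 value of 10, so the bright genes are the closer background. Ndufb4 and Ndufa4l2 had mean intensities under 50.

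**Figure D1:**
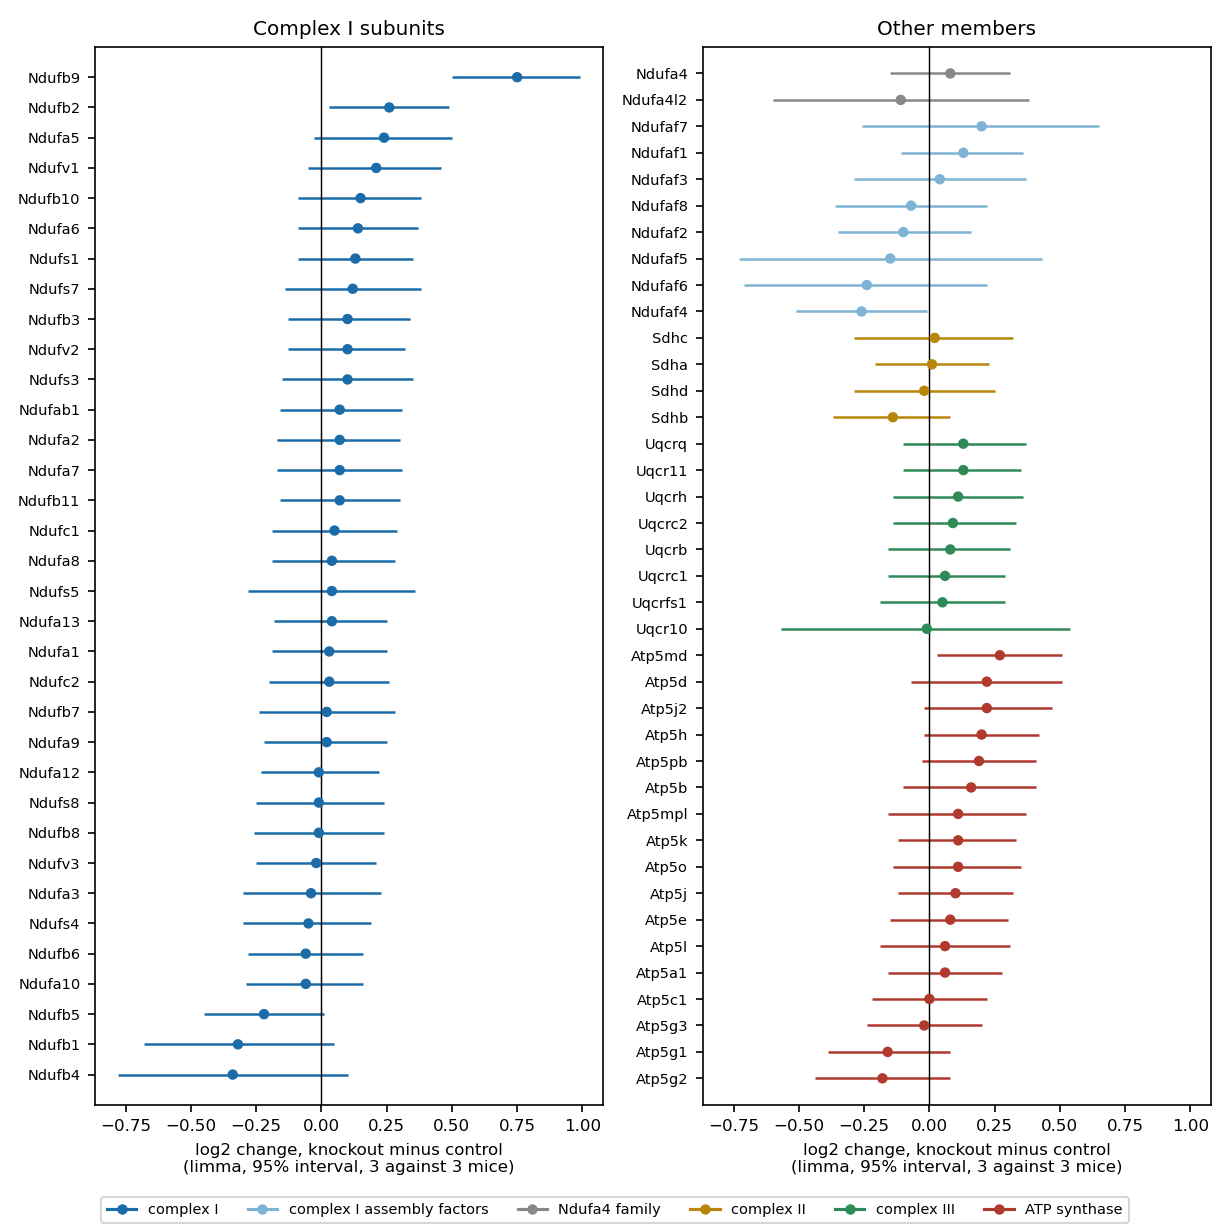
Log2 change of each of the 73 genes, knockout minus control, with its 95% interval from limma over 3 control and 3 knockout mice, by complex. Ndufb9 lies at 0.75 and the other 72 lie between -0.34 and 0.27. After quantile normalization 24 of the 73 change sign.

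The sign of the small common shift rested on how the arrays were scaled. With the deposited values 49 of 73 genes (67.1%) lay above 0, and after quantile normalization 25 (34.2%). Bright genes moved alike, from 58.7% to 41.1% above 0, and all genes from 49.8% to 46.3%. The median change of the 73 genes was 0.06 with the deposited values and -0.04 after quantile normalization, beside 0.04 and -0.05 for bright genes. Under both scalings 25 genes were above 0 and 24 below it, and 24 turned. Control and knockout values did not overlap for 25 genes, against 21.6% of all genes. They were higher in the knockouts for 19 genes (26.0%) and lower for 6 (8.22%), compared with 12.3% and 9.23% of all genes and with 28.7% and 14.0% of bright genes.

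Promoters were read for the binding motifs of nuclear factors known for the control of respiratory genes. RefSeq windows of 300 bases (GRCm38.p6, from 250 before to 50 after the start) were held for 62 of the 73 genes. The windows were searched on both strands for GCGCNTGCG, the core of the NRF1 motif, for CCGGAAG, bound by ETS factors such as GABP, and for AAGATGGCG, a YY1 motif. The NRF1 letters were present in 23 genes (37.1%), against 7.12% of 27025 genes with a window and 9.68% of 17491 protein-coding ones. The ETS letters were in 16 (25.8%, against 9.93% and 12.9%) and the YY1 letters in 7 (11.3%, against 1.64% and 2.14%). At least 1 of these motifs was in 38 genes (61.3%, against 16.6% and 21.9%), and no windows had overlapping matches of different motifs. A match is a run of letters, not a bound site. The median GC content was 59.3% in the members' windows, 52.7% over all genes and 56.3% over protein-coding ones.

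The NRF1 letters were found in 7 of 31 complex I genes, 2 of 7 assembly factors, 2 of 3 complex II genes, 3 of 5 complex III genes, 0 of 1 in the Ndufa4 pair and 9 of 15 ATP synthase genes. A promoter of each complex is shown as the 150 bases before the start, 5′ to 3′ on the gene's own strand, with the matches in capitals, to set out where the NRF1 and ETS letters lie before the starts of genes from different complexes. They were chosen after the matches and the values were seen. Ndufa8 (complex I, chr2:36049339-36049488, minus strand) has NRF1 matches that begin 30 and 9 bases before the start. Sdha (complex II, chr13:74350241-74350390, minus strand) has 3, at 97, 54 and 9 bases. Uqcrh (complex III, chr4:116075071-116075220, minus strand) has an ETS match at 10 bases. Atp5h (ATP synthase, chr11:115419920-115420069, minus strand) has an NRF1 match at 140 and an ETS match at 38 bases.
Ndufa8: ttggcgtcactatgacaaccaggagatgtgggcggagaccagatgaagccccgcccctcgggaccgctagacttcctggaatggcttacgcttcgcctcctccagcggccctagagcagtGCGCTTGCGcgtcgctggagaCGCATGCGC
Sdha: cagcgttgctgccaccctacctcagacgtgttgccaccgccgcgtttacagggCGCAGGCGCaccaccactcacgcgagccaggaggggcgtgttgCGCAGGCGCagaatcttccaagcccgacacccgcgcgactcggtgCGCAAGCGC
Uqcrh: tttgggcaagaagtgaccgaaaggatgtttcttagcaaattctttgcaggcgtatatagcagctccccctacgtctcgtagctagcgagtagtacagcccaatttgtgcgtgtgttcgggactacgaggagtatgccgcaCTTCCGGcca
Atp5h: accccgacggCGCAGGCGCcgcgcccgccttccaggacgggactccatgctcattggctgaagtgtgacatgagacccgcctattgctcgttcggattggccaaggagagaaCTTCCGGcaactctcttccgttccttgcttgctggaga

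The motif did not separate the genes by their change. The median log2 change was 0.04 in the 23 genes with the NRF1 letters and 0.05 in the 39 without them, and -0.04 and -0.05 after quantile normalization. No entry was held for Ndufb9, Ndufa2, Ndufs1, Ndufaf6, Ndufa4l2, Sdhc, Uqcrb, Uqcrc2, Uqcrq, Atp5a1 and Atp5mpl.

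Complex I had the widest range of changes, from -0.34 for the dim probe set of Ndufb4 to 0.75. Its highest value belonged to Ndufb9, an accessory subunit of the membrane arm from the LYR protein family. The brightest Ndufb9 probe set had 5015, 4368 and 4649 in the controls and 7848, 7599 and 8140 in the knockouts. Every knockout mouse was above every control mouse, with means of 4677 ± 324 and 7862 ± 271 (SD, n = 3 each) and a ratio of 1.68. The log2 change was 0.75 ± 0.10 (95% interval 0.50 to 0.99), and limma's adjusted p of 0.0812 missed the threshold. The exact two-sided permutation p was 0.1, the smallest that 3 against 3 mice allow.

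A second Ndufb9 probe set showed the same separation and passed. It had 3124, 2868 and 2881 in the controls and 5446, 5723 and 5769 in the knockouts, means of 2958 ± 144 and 5646 ± 175 (SD, n = 3 each) and a ratio of 1.91. It rose by 0.93 ± 0.10 on the log2 scale (95% interval 0.70 to 1.16, limma's adjusted p = 0.0361), and was the 1 probe set of the 144 that was called. The third was dim, with values of 1.00 to 10.2 over the 6 mice and a change of 0.29 (adjusted p = 0.503). The call did not hold when any single mouse was left out: the second probe set then changed by 0.91 to 0.97 with adjusted p-values of 0.107 to 0.232. Quantile normalization gave 0.82 with an adjusted p of 0.0501. A change above that of Ndufb9's brightest probe set was seen in 224 of all genes and in 78 of the 3292 bright ones. Some erythroid markers had changes of like size: Epb42 0.75, Gata1 0.70, Klf1 0.65 and Ank1 0.65. Others changed less or the other way: Tfrc 0.38, Slc4a1 0.21, Alas2 -0.06 and Epor -0.14. The median over the 8 measured was 0.51. Of the 8, 6 were higher without overlap, against 12.3% of all genes and 28.7% of bright ones. In limma 0 of the 8 passed, where 0.14% of all probe sets were called higher. An unadjusted p under 0.05 was seen in 5, against 12.7% of all genes and 21.8% of bright ones. With an intensity trend 3 passed, where 2.68% of all probe sets were called higher. The part of these markers in the Ndufb9 values was not tested.

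Ndufb9 lies on chromosome 15 between Tatdn1 and Mtss1 in RefSeq gene order, and Rnf139 is next to Tatdn1. Rnf139, which encodes a ubiquitin ligase of the endoplasmic reticulum, had 4259, 3479 and 4007 in the controls and 5538, 5914 and 6527 in the knockouts. Its groups did not overlap either, and its log2 change of 0.61 ± 0.12 did not pass (limma's adjusted p = 0.166; 0.00117 with an intensity trend and robust moderation). Tatdn1 had 246, 316 and 256 against 345, 378 and 376, a change of 0.41 ± 0.13 (adjusted p = 0.29), and its 5 probe sets ranged from -0.10 to 0.41. On the other side, Mtss1 had 2326, 2332 and 2510 against 1825, 2369 and 1884, with overlapping groups and a change of -0.25 ± 0.13 (adjusted p = 0.503). Farther out, Tmem65 changed by 0.25, Trmt12 by 0.16, Sqle by -0.23 and Washc5 by -0.12. These neighbours were looked at after the value of Ndufb9 was known.

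**Figure D2:**
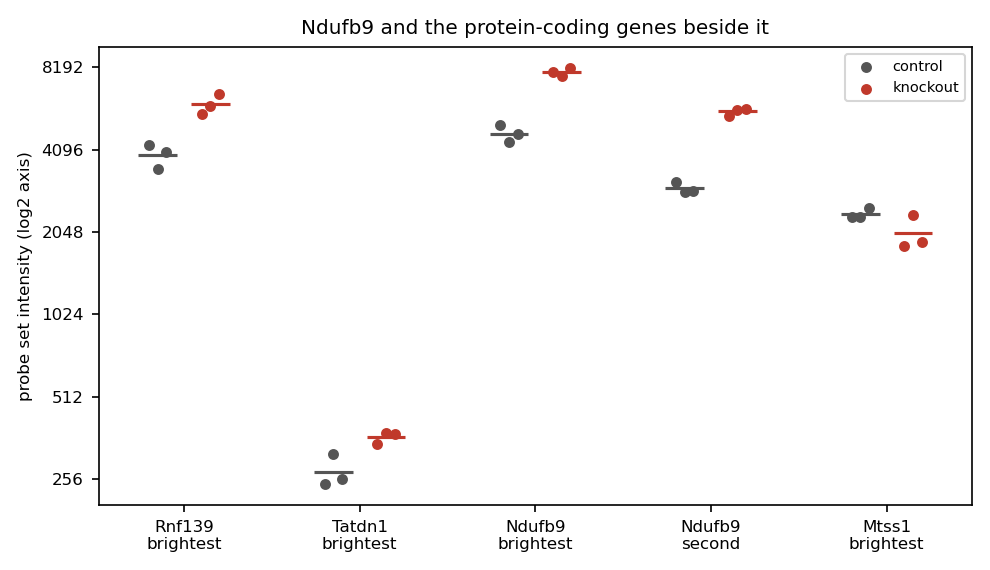
Intensity on a log2 axis of Ndufb9, as its brightest and its second probe set, and of the genes next to it on chromosome 15, as their brightest probe sets, in 3 control and 3 knockout mice, with 1 point per mouse and bars at the group means. The groups do not overlap for Rnf139, Tatdn1 and Ndufb9, and overlap for Mtss1, and levels are not comparable between probe sets.

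The other accessory subunits of complex I stayed within 0.34 of no change. Ndufb2, a small membrane arm subunit, had 1036, 1097 and 1077 in the controls and 1310, 1327 and 1222 in the knockouts. Its groups did not overlap, and the change of 0.26 ± 0.09 did not pass (adjusted p = 0.35). Ndufa5, an accessory subunit of the matrix arm, had 946, 1136 and 1113 against 1236, 1262 and 1268, also without overlap, a change of 0.24 with an adjusted p of 0.442. The lowest values belonged to Ndufb subunits as well. Ndufb5 had 2594, 2452 and 2665 against 2279, 2229 and 2119, with the knockouts below the controls, a change of -0.22 ± 0.10 and an adjusted p of 0.425, while its second probe set lay at -0.04.

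Ndufb1 had 258, 303 and 266 against 189, 266 and 206, so that its groups overlapped at 266, and changed by -0.32 (adjusted p = 0.458). Ndufb4, at -0.34 (adjusted p = 0.503), was measured by a dim probe set with values between 15.2 and 42.7. The 2 probe sets annotated to Ndufb4 together with other loci were not used for the gene. They were bright, with control means of 2393 and 3634, and changed by 0.00 and -0.01. The 13 Ndufb and Ndufc genes had a median of 0.03, and the 15 other accessory subunits one of 0.04, which became -0.08 and -0.06 after quantile normalization.

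The core subunits, which hold the flavin and the iron-sulfur clusters, lay slightly above 0. Their median was 0.11, and 0.04 after quantile normalization, with 5 of 6 above 0 under both scalings. Ndufv1, which binds the flavin that takes electrons from NADH, had 1551, 1593 and 1756 in the controls and 1822, 1808 and 2028 in the knockouts. That is a change of 0.21 ± 0.11 without overlap of the groups (adjusted p = 0.491), and its 3 probe sets ranged from 0.09 to 0.21. Ndufs1, the largest iron-sulfur subunit, had 1197, 1141 and 1227 against 1294, 1299 and 1304, a change of 0.13 (adjusted p = 0.62).

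Ndufs7, next to the ubiquinone site, changed by 0.12 and its second probe set by -0.06, and Ndufs3 and the iron-sulfur subunit Ndufv2 by 0.10 each. Ndufs8, another iron-sulfur subunit, changed by -0.01, and its 6 probe sets lay between -0.21 and -0.01. Ndufs8 turned to 0.01 with median centring. None of the 6 core genes passed in limma, where 0.14% of all probe sets were called higher and 0.00666% lower. With an intensity trend 0 passed, where 2.68% were called higher and 0.531% lower. An unadjusted p under 0.05 was seen in 0, against 12.7% of all genes. Of the 6, 4 were higher without overlap, against 12.3% of all genes and 28.7% of bright ones. The difference from other genes was not tested.

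The 8 assembly factors, which build complex I and are not part of it, had a median of -0.08 (-0.12 after quantile normalization). Without control mouse 2 it was -0.02 and without knockout mouse 3 it was -0.03, and the difference from the subunits was not tested. Ndufaf4 had 536, 579 and 519 in the controls and 480, 459 and 423 in the knockouts. The groups did not overlap and the change was -0.26 ± 0.10 (adjusted p = 0.392), but its second probe set lay at 0.02. Ndufaf6 changed by -0.24 and Ndufaf5 by -0.15, with standard errors of 0.19 and 0.24. Ndufaf7, a protein methyltransferase, changed by 0.20, Ndufaf1 by 0.13 and Ndufaf3 by 0.04. Of the 8 genes, 4 had 95% intervals within 0.5.

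In the pair with Ndufa4 names, Ndufa4 had 6630, 6085 and 6042 in the controls and 6540, 6613 and 6625 in the knockouts. Its groups overlapped, and its change of 0.08 (adjusted p = 0.787) turned to -0.05 after quantile normalization. Ndufa4l2, known as a hypoxia-induced gene, had values of 11.2 to 26.4 over the 6 mice and a change of -0.11 (adjusted p = 0.877).

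In complex II no gene had a change over 0.14 in size on its brightest probe set. The flavoprotein Sdha, which oxidises succinate, had 2182, 2144 and 2239 in the controls and 2178, 2182 and 2248 in the knockouts. Its change of 0.01 ± 0.09 became -0.07 after quantile normalization, and its interval of -0.21 to 0.23 leaves room for small differences in either direction. The second Sdha probe set had 1924, 1910 and 1965 against 1993, 2039 and 2258. Its groups did not overlap, and its change was 0.11 (limma's adjusted p = 0.689). The 4 Sdha probe sets ranged from -0.19 to 0.11. The membrane anchors Sdhc and Sdhd changed by 0.02 and -0.02, and their second probe sets by -0.03 and 0.20. Sdhb, the iron-sulfur subunit, had 3263, 3127 and 3217 against 2820, 3042 and 2829. Every knockout mouse was below every control mouse, and the change of -0.14 ± 0.09 did not pass (adjusted p = 0.576).

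The median of the complex II genes was -0.01 (-0.09 after quantile normalization), and it was also -0.09 without control mouse 1. The 4 intervals all lay within 0.5.

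Complex III had a median of 0.08, which became -0.02 after quantile normalization, with 7 of 8 genes above 0 and then 3. Uqcr11, a small membrane subunit, had 1297, 1379 and 1372 in the controls and 1427, 1462 and 1538 in the knockouts, a change of 0.13 (adjusted p = 0.633), and was the 1 gene of the 8 (12.5%) whose groups did not overlap, near the 12.3% of all genes that were higher without overlap and below the 28.7% of bright genes. Uqcrq changed by 0.13, and its 4 probe sets ranged from -0.17 to 0.23. The hinge protein Uqcrh, which contacts cytochrome c1, changed by 0.11. The core proteins Uqcrc1 and Uqcrc2 changed by 0.06 and 0.09, and the Rieske iron-sulfur protein Uqcrfs1 by 0.05. Uqcrh, Uqcrc1, Uqcrc2 and Uqcrfs1 lay just below 0 after quantile normalization, between -0.05 and -0.01.

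Uqcr10 had the widest spread between mice among the complex III genes. It had 6014, 3587 and 6013 in the controls and 5412, 4295 and 5414 in the knockouts. The mouse numbered 2 was low in both groups, the means did not differ beyond this spread (-0.01 ± 0.23), and on the 2 dimmer Uqcr10 probe sets control mouse 2 was the highest of the controls, at 198 and 158.

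The ATP synthase had a median of 0.11, which became -0.02 after quantile normalization. It was above the 0.08 of complex III, but the order was lost after quantile normalization (-0.02 each), without control mouse 2 (0.05 each) or 3 (0.11 each), and without knockout mouse 3 (0.08 against 0.09). The brightest probe sets of the 3 c ring genes had changes below 0 under both scalings. With the deposited values each had a 95% interval that included 0. Without the c ring, 13 of 14 genes lay above 0 (median 0.11), and 8 of 14 after quantile normalization (median 0.00). Of all 17 genes, 8 had non-overlapping groups that were higher in the knockouts and 2, both of the c ring, lower ones, where 12.3% and 9.23% of all genes and 28.7% and 14.0% of bright genes did.

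In the F1 head, the catalytic beta subunit Atp5b had 8301, 7012 and 7930 in the controls and 8391, 8832 and 8635 in the knockouts, a change of 0.16 (adjusted p = 0.596). The groups did not overlap, but the knockouts were close to control mouse 1. The alpha subunit Atp5a1 had 6426, 6025 and 6324 against 6458, 6555 and 6560, a change of 0.06 that turned to -0.06 after quantile normalization. Atp5c1, the rotating central shaft, changed by 0.00, and Atp5d, also of the central stalk, by 0.22 (adjusted p = 0.515), with a 95% interval of -0.07 to 0.51. The 5 genes of the head had a median of 0.08, and of -0.05 after quantile normalization.

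The 4 peripheral stalk genes had a median of 0.15, and of 0.05 after quantile normalization. Atp5h had 8377, 8166 and 8597 in the controls and 9407, 9617 and 9840 in the knockouts, which was a change of 0.20 ± 0.09 (adjusted p = 0.439). Atp5pb had 7353, 7424 and 7501 against 8469, 8304 and 8658, a change of 0.19 (adjusted p = 0.451). In both genes the knockouts lay above the controls with little spread inside each group, although the second Atp5h probe set overlapped, with a change of 0.07. Atp5o, which joins the stalk to the head, changed by 0.11. Atp5h and Atp5pb were named after their values were seen.

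Among the other membrane subunits, Atp5md had 4087, 3724 and 3983 in the controls and 4441, 4818 and 4980 in the knockouts. It had the largest change of the ATP synthase genes, 0.27 ± 0.10, which did not pass (adjusted p = 0.36). Atp5j2 had 10134, 8758 and 9803 against 11375, 10894 and 11199, a change of 0.22 (adjusted p = 0.439). In both genes the knockouts lay above the controls, and the 5 genes of this group had a median of 0.11, and of 0.00 after quantile normalization.

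Subunit c forms the proton-driven ring and is encoded by several genes whose mature proteins are the same. Atp5g1 had 1823, 1699 and 1922 in the controls and 1644, 1617 and 1614 in the knockouts, a change of -0.16 ± 0.10 (adjusted p = 0.563). Atp5g2 had 2749, 3091 and 3062 against 2723, 2706 and 2414, a change of -0.18 ± 0.11 (adjusted p = 0.542). In both the knockouts lay below the controls, by a small margin over control mouse 2 for Atp5g1 and over control mouse 1 for Atp5g2. Atp5g3, the brightest, had 9570, 9012 and 9317 against 8882, 9336 and 9231, with overlapping groups and a change of -0.02 ± 0.09 (adjusted p = 0.946). The c ring median was -0.16, and -0.23 after quantile normalization. A dim second probe set of Atp5g1 (9.16 to 26.8) lay at 0.32, and the mean of both was 0.08. For Atp5g2 the mean of its 3 probe sets was -0.05. The difference between the c ring and the other subunits was not tested.

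**Figure D3:**
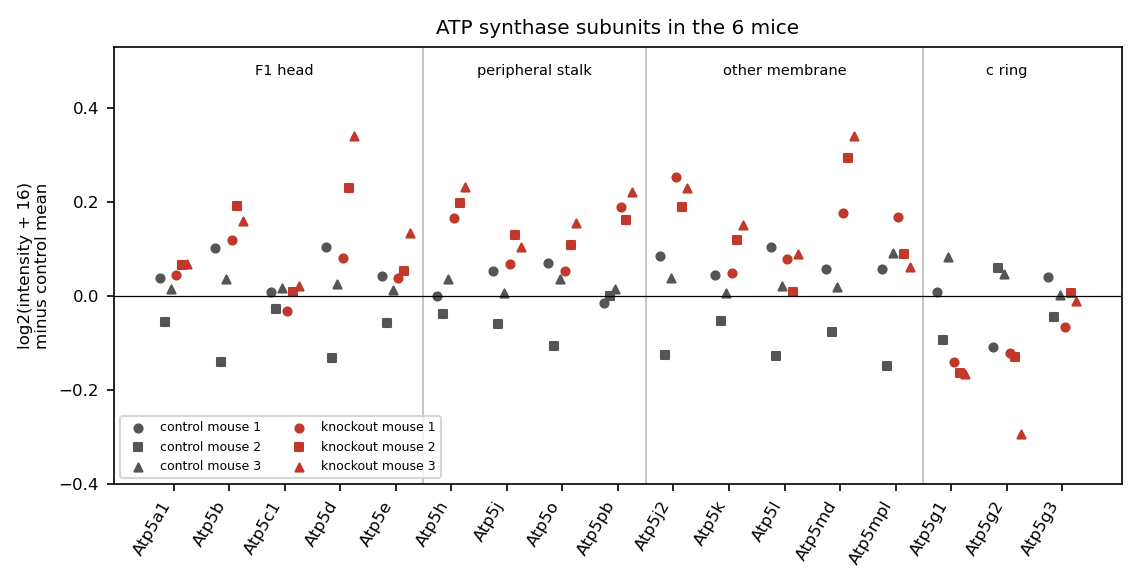
Log2(intensity + 16) of the 17 ATP synthase genes in each of the 6 mice, minus the gene's control mean, grouped by place in the enzyme, with 1 point per mouse. The knockouts lie above the controls for 8 genes outside the c ring and below them for Atp5g1 and Atp5g2 (28.7% and 14.0% of bright genes do so), while after quantile normalization 8 of the 14 genes outside the c ring have a change above 0.

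A single control mouse bears on the ATP synthase values. Control mouse 2 was the lowest of the controls in 15 of the 17 ATP synthase genes, 6 of 8 complex III genes, 20 of 34 complex I genes and 43 of 73 genes in all. Deviations were taken from each gene's mean over all 6 mice. Over the ATP synthase genes the median deviation of control mouse 2 was -0.11. It was 0.00 and -0.03 in control mice 1 and 3 and 0.02, 0.06 and 0.08 in the knockouts. Over the 3292 bright genes control mouse 2 was the lowest control as well, with a median deviation of -0.05 against -0.01 and -0.01. Control mouse 2 also had the lowest erythroid marker sum, 67401 against 82854 and 76945. Without it the ATP synthase median was 0.05, that of complex III 0.05 and that of the c ring -0.15, and the median of all 73 genes was 0.03. The median of the bright genes went from 0.04 to 0.03. The part of the erythroid markers in these values was not tested.

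**Figure D4:**
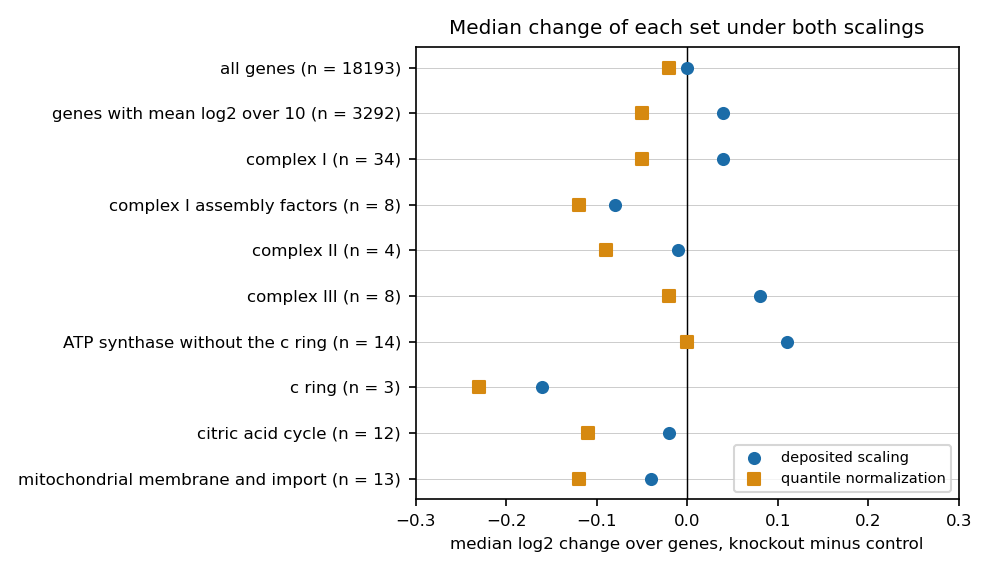
Median log2 change, knockout minus control, over the genes of each set with the deposited scaling (circles) and after quantile normalization (squares). Complex I, complex III and bright genes lie above 0 with the first and below it with the second. The c ring, the assembly factors and complex II lie below 0 with both, as do the citric acid cycle and the membrane and import genes.

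Genes that work beside these complexes were read from lists of carriers, other subunits and assembly factors, of biogenesis regulators, of the citric acid cycle and of mitochondrial membrane and import proteins. None of the 24, 14, 12 and 13 measured genes of these lists passed in limma in either direction, 7 in all had an unadjusted p under 0.05 (12.7% of all genes did), and 2, Atpif1 and Vdac3, passed with an intensity trend (2.68% of probe sets were higher and 0.531% lower). Both counts were near these backgrounds. Atpif1, the inhibitor of ATP hydrolysis by the ATP synthase and known to be required for heme synthesis in erythroid cells, had 9790, 9564 and 9985 in the controls and 12088, 12966 and 13516 in the knockouts. Every knockout mouse was above every control mouse, with a change of 0.39 ± 0.10 (adjusted p = 0.221; 0.00198 with an intensity trend and robust moderation). Its size was above that of any of the 17 ATP synthase subunits.

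Ecsit, an assembly factor of complex I, had 178, 185 and 178 in the controls and 118, 114 and 140 in the knockouts, a change of -0.49 ± 0.11 without overlap (adjusted p = 0.196). Sdhaf1, an assembly factor of complex II, had 333, 409 and 398 against 305, 303 and 302, a change of -0.31 (adjusted p = 0.356). The mobile carrier cytochrome c, Cycs, and cytochrome c1, Cyc1, changed by 0.10 and 0.16. The median of this list was -0.05, and -0.07 after quantile normalization.

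The regulators of mitochondrial biogenesis had a median of 0.03 (0.02 after quantile normalization). The coactivator Pprc1 changed by 0.20, Yy1 by 0.13 and the mitochondrial DNA helicase Twnk by -0.21, with adjusted p-values of 0.515, 0.62 and 0.635. In the citric acid cycle (median -0.02, and -0.11), Dlst, a subunit of the 2-oxoglutarate dehydrogenase complex, had 853, 803 and 796 against 600, 659 and 707, a change of -0.31 (adjusted p = 0.325). Dld, a subunit shared by several dehydrogenase complexes, changed by 0.24 and the succinyl-CoA ligase subunit Suclg2 by -0.25 (adjusted p = 0.427 and 0.439).

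Among membrane and import proteins (median -0.04, and -0.12), the outer membrane channel Vdac3 had 4170, 4082 and 4328 in the controls and 4979, 5078 and 5256 in the knockouts. Its change was 0.28 without overlap of the groups (adjusted p = 0.313; 0.0233 with an intensity trend and robust moderation). The import genes Tomm70a and Tomm40 changed by -0.24 and -0.25 (adjusted p = 0.364 and 0.417), with the knockouts below the controls in both.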

How the data were processed

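RNA of 6 mice was measured on 1 array each. The authors deposited 1 table of linear intensity values per probe set and array. They were made with software, background correction and scaling not given in the sources used here. Per the platform annotation, 34945 probe sets had 1 gene symbol, 932 had several and were left out by name, and 9160 had none. All 73 members matched a RefSeq gene by Entrez ID. The log2 medians of the arrays differed by at most 0.057 and the interquartile ranges by at most 0.07, below the limit of 0.1 for normalizing again. Log2(intensity + 16) was fitted with limma 3.58.1 in R 4.3.3 (lmFit, eBayes, two-sided), with Benjamini-Hochberg adjustment over 45037 probe sets, and the prior degrees of freedom were 2.42. The fit was tested on simulated data. Other steps used Python 3.11.15. The number of arrays limits the precision.

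The labels name separate mice. Mouse numbers recur in both groups, but same-numbered mice did not deviate together (correlations of -0.035, -0.014 and -0.04), so no pairing was used. The members and lists were chosen with earlier results of these data known. The genes named are the 3 largest and 3 smallest changes of each class, complex II, the Ndufa4 pair, the catalytic core, the c ring, and the 3 smallest p-values of each other list. Cycs, Cyc1 and neighbours of Ndufb9 were added after their values were seen, as were the genes said to be so in the text. Alternatives were median centring or quantile normalization, pseudocounts of 1 and 64, array weights, robust moderation with an intensity trend, testing the brightest 50%, 1 probe set or the mean of all per gene, the mouse number as a block and leaving out each mouse.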

Additional observations from a re-analysis of the deposited data

How the results depend on the processing

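The 73 genes gave 0 calls with the deposited values and 1, Ndufb9, with a pseudocount of 64, robust moderation with an intensity trend, the brightest 50% of probe sets, or 1 probe set per gene. The 144 probe sets gave 1 call, 2 under the first 3 of those settings, and 0 with quantile normalization, a pseudocount of 1 or any mouse left out (0 to 0). With the mouse number as a replicate block 0 were called, and the adjusted p of the second Ndufb9 probe set was 0.431. Over all probe sets the calls were 66, against 57 with quantile normalization, 75 with median centring, 38 and 558 with pseudocounts of 1 and 64, 853 in the brightest 50%, 1445 with an intensity trend, 79 with array weights, 14 with the block, 27 to 41 with a mouse left out and, over genes, 84 and 62 with 1 probe set or the mean per gene. Quantile normalization moved the members above 0 from 49 to 25 and the medians to -0.04 (all members), -0.05 (complex I), -0.09 (complex II), -0.02 (complex III) and -0.02 (ATP synthase). With a mouse left out, medians were 0.03 to 0.07 for all members, -0.12 to -0.02 for assembly factors, -0.09 to 0.01 for complex II, 0.05 to 0.11 for complex III and 0.05 to 0.13 for ATP synthase. Of 668 values of 41 named members under the alternatives, 36 changed sign, in 16 members whose changes were at most 0.16 in size. With quantile normalization these were Atp5a1 (-0.06), Ndufa4 (-0.05), Sdha (-0.07), Uqcrc1 (-0.02), Uqcrc2 (-0.03), Uqcrfs1 (-0.05) and Uqcrh (-0.01). With median centring they were Atp5c1 (0.02), Ndufs8 (0.01) and Uqcr10 (0.00), with array weights Ndufaf3 (-0.02) and Sdha (0.00), and with the mean of probe sets Atp5g1 (0.08), Sdha (-0.05), Sdhc (-0.01) and Sdhd (0.09). Leaving out a mouse gave -0.01 to 0.02 for Atp5c1, -0.30 to 0.02 for Ndufa4l2, -0.05 to 0.13 for Ndufaf3, -0.34 to 0.06 for Ndufaf5, -0.06 to 0.04 for Ndufs8, -0.01 to 0.03 for Sdha, -0.08 to 0.11 for Sdhc, -0.10 to 0.03 for Sdhd and -0.26 to 0.11 for Uqcr10. The cause of these differences was not tested. The planned membership without pseudogenes, Atp5s and Atp5sl was not run, since no member was of that kind.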
